A study of Drosophila melanogaster with 12 samples.

Results

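The 8 genes described here handle iron in *Drosophila*: the transferrin genes *Tsf1*, *Tsf2* and *Tsf3*, the ferritin subunit genes *Fer1HCH* and *Fer2LCH*, the metal transporter gene *Mvl*, and the iron regulatory protein genes *Irp-1A* and *Irp-1B*. They were taken by name from the probe annotation, where all 8 were found, among 11751 genes that had a probe of their own and a value on at least 1 array. The set was put together after *Tsf1* was seen to have the highest ratio of any gene in *ash2-I1* discs, so the values of that allele are a description and carry no test. The array held 9 probes for these genes, and the second probe of *Tsf1* had no value on any array.

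The study compared wing imaginal discs, the larval sacs of epithelium that form the adult wing and part of the thorax, of mutants in *ash2* and *ash1*, a pair of trithorax group genes whose proteins act on chromatin, with discs of an isogenic line. The mutants were w1118;+;*ash2-I1*, w1118;+;*ash2-112411* and the combination w1118;+;*ash1-22*/*ash1-22*F2A, written *ash1-22* below, and the reference was a pool of RNA from w1118;+;+ discs. All larvae were in their last larval stage, were staged by the blue food dye in the gut, and were grown on standard food, and the mutants were picked from balanced stocks by the absence of the Tubby marker. RNA was extracted 2 times per allele. A dye-swapped pair of arrays, Cy3 and Cy5 exchanged, was hybridized with each extraction, which made 12 arrays.

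The stocks were given the X, Y and second chromosomes of the reference line, while the third chromosome, which carries the *ash2* or *ash1* mutation, came from the mutant stocks. Of the iron genes, 6 lie on chromosome 3, 1 (*Tsf1*) on the X and 1 (*Tsf3*) on chromosome 2, by the gene order of the *Drosophila* assembly Release 6. The mutation and other differences between the third chromosomes cannot be told apart for any of the iron genes, *Tsf1* and *Tsf3* included. The discs were measured whole, so fewer cells of a type and less RNA per cell cannot be told apart either.

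Iron is needed for respiration and DNA synthesis and is toxic when free, so cells carry, store and sense it with dedicated proteins. In insects transferrin 1 is a secreted protein that binds iron in the hemolymph and is made largely by the fat body, while ferritin, a shell of heavy and light chains, is itself secreted and both stores and moves iron. Iron regulatory proteins bind hairpins in messenger RNAs when iron is low, and are aconitases when they hold an iron-sulfur cluster.

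Values are log2 ratios of mutant over reference, so that 1 means a doubling and a negative value less RNA in the mutant. A ratio has no level behind it, and how bright a spot was is not part of the values. A gene was called changed when limma gave an adjusted p under 0.05 and the log2 ratio was past 0.58, or 1.5-fold, in either direction. The adjustment was by Benjamini-Hochberg over all probes tested. The SE comes from the 6 extractions together and leaves out the error of the reference pool, which was 1 sample on every array. A low value of a gene in that pool would raise its ratio in every allele. Only a difference between alleles cancels the pool. Nothing states whether the 2 extractions of an allele came from separate cultures, so the p-values measure the spread between these extractions only.

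The arrays had values for 5804 to 11179 spots each. The spread of the ratios over all spots of an array, as median absolute deviation, was smallest in *ash1-22* (0.20 to 0.25), larger in *ash2-I1* (0.28 to 0.38) and largest in *ash2-112411* (0.40 to 0.46), so that equal values are not equally extreme in the 3 alleles. RNA of *ash2* itself had log2 ratios of −2.21 to −1.21 on the 4 *ash2-I1* arrays. On the 3 *ash2-112411* arrays with a value they ran from −2.07 to −1.47, against 0.19 and 0.34 on the 2 *ash1-22* arrays with one. The *ash1* gene was not analysed here.

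*Tsf1*, the gene of the secreted transferrin, was called up in both alleles that could be tested, and it was the only one of the 8 that was. In *ash2-112411* its log2 ratio was 4.0 with the mutant in Cy5 and 2.69 with it in Cy3 in extraction 1, and 4.50 and 2.85 in extraction 2. In *ash1-22* it was 1.59 with the mutant in Cy5 and 2.32 in Cy3 in extraction 1, and 1.51 and 1.82 in extraction 2. Every array was well above 0, and the lowest *ash2-112411* array lay above the highest *ash1-22* array. The mean was 3.51 ± 0.15 (SE, n = 2 extractions) in *ash2-112411*, an 11.4-fold rise with an adjusted p of 7.2e-05 by limma, and 1.81 ± 0.15 in *ash1-22*, a 3.51-fold rise with an adjusted p of 0.0015. From the highest ratio down, *Tsf1* stood at place 1 of 9734 genes tested in *ash2-112411* and at place 8 of 8142 in *ash1-22*. Both alleles share the reference pool with *ash2-I1*, so these tests are not independent of the choice of *Tsf1*.

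In *ash2-I1*, the allele whose values chose the gene, *Tsf1* had log2 ratios of 4.66 with the mutant in Cy5 and 3.97 in Cy3 in extraction 1, and 4.19 and 3.22 in extraction 2. The mean was 4.01 ± 0.15, 16.1-fold, at place 1 of 6897 genes. These arrays overlapped the *ash2-112411* arrays, although the extraction means of *ash2-I1*, 4.32 and 3.71, were both higher than those of *ash2-112411*, 3.35 and 3.68. The dye mattered for the size of the ratio. It was 0.69 to 1.65 higher in Cy5 than in Cy3 in the 4 extractions of the *ash2* alleles and 0.31 to 0.73 lower in Cy5 in the 2 extractions of *ash1-22*, and every extraction mean holds both dyes. These gaps were wider than those of 78.3% to 99.9% of the probes with both arrays.

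**Figure D1:**
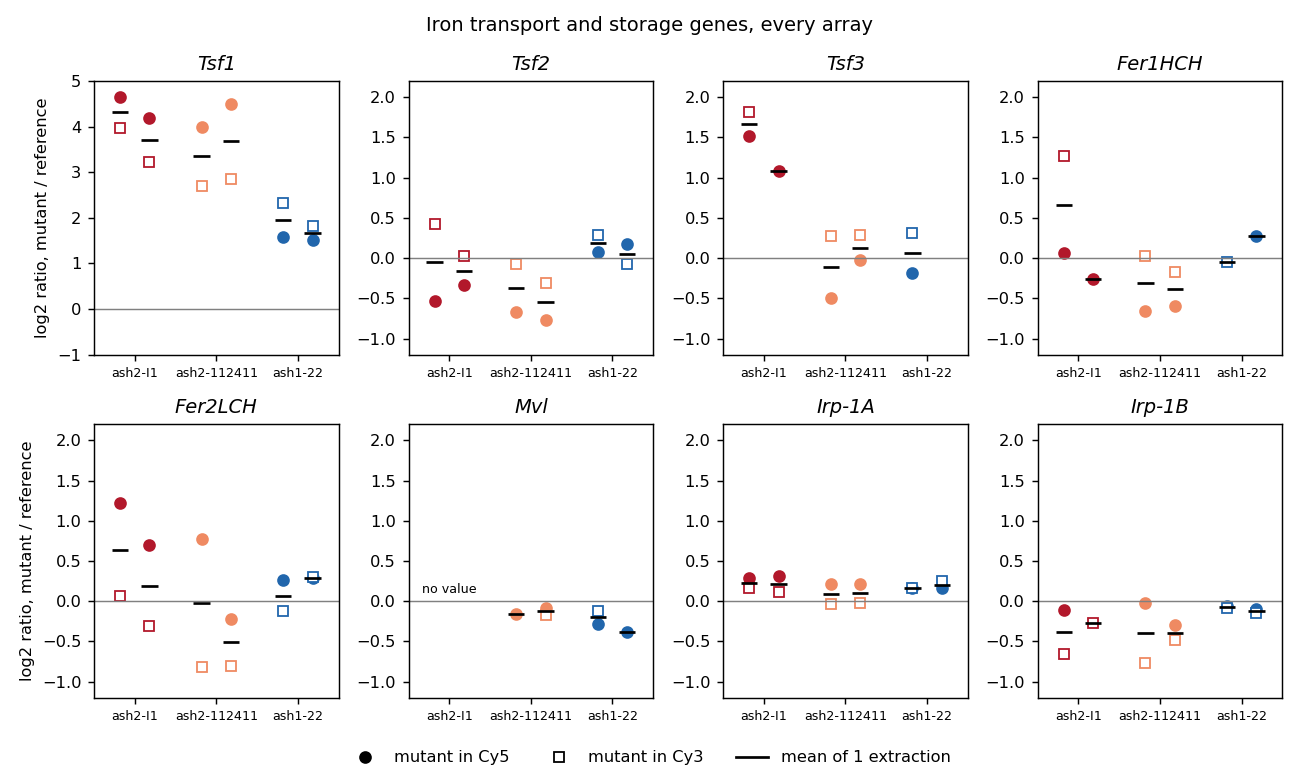
Log2 ratio of mutant over reference (vertical axis) on every array for each of the 8 genes, by allele, with the extractions side by side; filled circles are arrays with the mutant in Cy5, open squares arrays with it in Cy3, and black bars the mean of 1 extraction. The *Tsf1* panel has its own axis, where all 12 arrays lie between 1.51 and 4.66, while of the other genes only *Tsf3* in *ash2-I1* has every array above 1.

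The difference between *ash2-112411* and *ash1-22* in *Tsf1* was 1.70 ± 0.22 on the log2 scale, with an adjusted p of 0.0045 by the limma contrast. The adjustment ran over all probes tested in both alleles, which covered 7321 genes. On the arrays with the mutant in Cy5 the difference was 2.7, and on those with it in Cy3 it was 0.7. The adjusted p was 0.0023 and 0.036 by the same contrast. The difference also depended on the scale of the arrays, which the authors had set within each allele and not across alleles. With every array brought to the same spread, *Tsf1* had a log2 ratio of 2.62 in *ash2-112411* and 2.57 in *ash1-22*, a difference of 0.05 with an adjusted p of 0.88. The rise within each of these alleles stood on either scale, with an adjusted p of 0.0038 or less in *ash2-112411* and of 0.042 or less in *ash1-22* under all 14 alternatives tried.

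Among all the members, 1 of 8 tested was called up and 0 down in *ash2-112411*, where 17.3% of all genes were called, 8.49% up. In *ash1-22*, 1 of 7 was called up and 0 down, where 3.06% of all genes were called, 1.81% up. In *ash2-I1*, 2 of 7 were past the same thresholds, *Tsf1* and *Tsf3*, both up, beside 12.5% of all genes, 5.54% up. The median log2 ratio of the members was −0.20 in *ash2-112411*, 0.12 in *ash1-22* and 0.22 in *ash2-I1*, against 0.00, 0.01 and 0.02 for all genes tested.

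*Tsf3*, a further transferrin family gene, was high in *ash2-I1* and had values around 0 on the arrays of the other alleles that measured it. In that allele its log2 ratio was 1.52 with the mutant in Cy5 and 1.82 in Cy3 in extraction 1, and 1.08 in extraction 2, where the array with the mutant in Cy3 gave no value. In *ash2-112411* it was −0.50 with the mutant in Cy5 and 0.28 in Cy3 in extraction 1, and −0.03 and 0.29 in extraction 2. In *ash1-22* extraction 1 gave −0.18 in Cy5 and 0.31 in Cy3, and extraction 2 gave no value. The 3 *ash2-I1* arrays all lay above every array of the other alleles, and arrays of those alleles fell on both sides of 0.

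The mean of *Tsf3* was 1.37 ± 0.14 in *ash2-I1*, 2.59-fold, and 0.01 ± 0.14 in *ash2-112411*, with an adjusted p of 0.96 by limma. It was not tested in *ash1-22*, whose single extraction had a mean of 0.07. The *ash2-I1* mean was 1.36 above that of *ash2-112411*, with no overlap of extractions, and since the *ash2-I1* values entered the choice of the set this difference carries no test. Extraction 2 of *ash2-I1* rested on 1 array, whose dye bias is not cancelled.

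*Tsf2*, whose protein is a membrane-bound transferrin needed for septate junctions between epithelial cells, lay slightly below the reference in *ash2-112411*. Its log2 ratios there were −0.67 with the mutant in Cy5 and −0.07 in Cy3 in extraction 1, and −0.77 and −0.31 in extraction 2. In *ash1-22* they were 0.08 and 0.29 in extraction 1, and 0.18 and −0.08 in extraction 2. All 4 *ash2-112411* arrays were below 0, while 3 of the 4 *ash1-22* arrays were above it. The means were −0.45 ± 0.08 with an adjusted p of 0.0025, short of 1.5-fold, and 0.12 ± 0.08 with an adjusted p of 0.34.

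The difference in *Tsf2*, *ash2-112411* minus *ash1-22*, was −0.57 ± 0.11 with an adjusted p of 0.012 in the limma contrast, and it was −0.53 with an adjusted p of 0.032 on the common scale. By the same contrast it was −0.85 with the mutant in Cy5 (adjusted p 0.0058) and −0.29 in Cy3 (adjusted p 0.19). The adjusted p ran from 0.00081 to 0.19 over 13 alternatives and was under 0.05 in 9 of them. With single extractions left out it was 0.064 when *ash2-112411* replicate 2 was dropped, and for *ash1-22* it was 0.086 when replicate 1 and 0.061 when replicate 2 was dropped. In *ash2-I1* the *Tsf2* ratios were −0.53 in Cy5 and 0.42 in Cy3 in extraction 1, and −0.34 and 0.03 in extraction 2, with a mean of −0.11 ± 0.08.

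**Figure D2:**
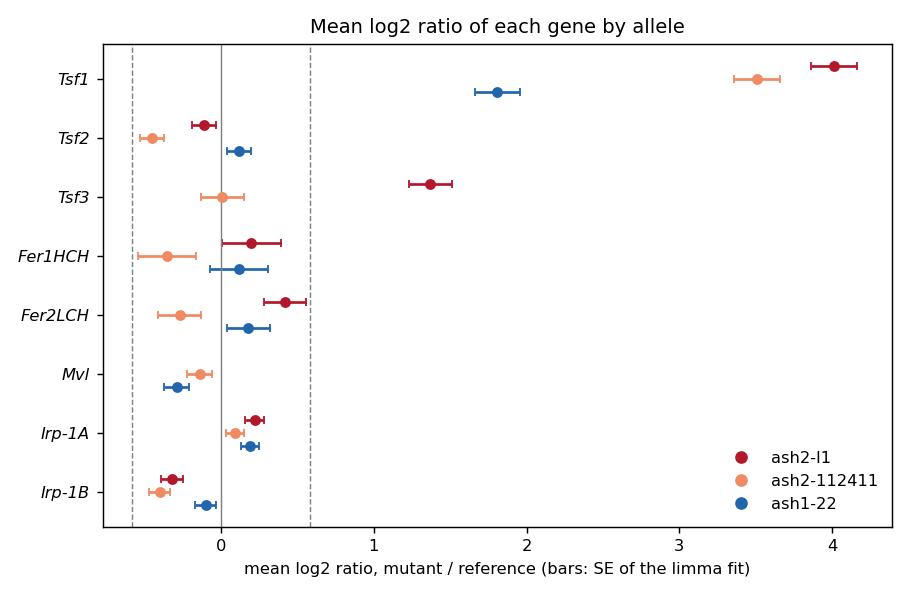
Mean log2 ratio of mutant over reference (horizontal axis) of each gene in each allele, with bars of 1 SE from the limma fit to 6 extractions; dashed lines mark 0.58 in either direction. *Tsf1* in all 3 alleles and *Tsf3* in *ash2-I1* lie past the dashed lines, and *Mvl* in *ash2-I1* and *Tsf3* in *ash1-22* have no point because they were not tested.

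The ferritin genes were not called in any allele. *Fer1HCH* encodes the heavy chain, which oxidises iron for storage, and its messenger carries an iron-responsive hairpin. In *ash2-112411* it had log2 ratios of −0.66 in Cy5 and 0.03 in Cy3 in extraction 1, and −0.60 and −0.17 in extraction 2. In *ash1-22* a single array of each extraction gave a value, −0.05 with the mutant in Cy3 and 0.28 with it in Cy5. The means were −0.35 ± 0.19 with an adjusted p of 0.17 by limma and 0.12 ± 0.19 with an adjusted p of 0.72.

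*Fer1HCH* in *ash2-I1* ran from 1.27 in Cy3 to 0.06 in Cy5 within extraction 1, and was −0.26 on the 1 array of extraction 2. The mean of 0.20 ± 0.19 thus covers arrays on both sides of 0, and the extractions, 0.67 and −0.26, lay on both sides too.

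*Fer2LCH*, the light chain gene that lies next to *Fer1HCH* on chromosome arm 3R, had wide gaps between dyes. In *ash2-112411* its log2 ratio was 0.77 with the mutant in Cy5 and −0.82 with it in Cy3 in extraction 1, and −0.22 and −0.80 in extraction 2. In *ash1-22* it was 0.26 and −0.12 in extraction 1, and 0.29 and 0.30 in extraction 2. The gap of 1.58 in extraction 1 of *ash2-112411* was wider than that of 98.4% of the 8071 probes with both arrays, whose median gap was 0.39. The means were −0.27 ± 0.14 with an adjusted p of 0.16 and 0.18 ± 0.14 with an adjusted p of 0.42.

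In *ash2-I1* *Fer2LCH* had 1.22 in Cy5 and 0.06 in Cy3 in extraction 1, and 0.70 and −0.31 in extraction 2, with a mean of 0.42 ± 0.14. Its difference *ash2-112411* minus *ash1-22* was −0.45 ± 0.20 with an adjusted p of 0.14 by limma, and that of *Fer1HCH* −0.47 ± 0.27 with an adjusted p of 0.23. Over the 9 arrays that measured both chains, the ratios of the ferritin genes had a Pearson correlation of −0.06, given as a description, since the arrays share extractions, the reference pool and the dyes.

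*Mvl*, or Malvolio, encodes a metal transporter of the NRAMP family, which carries iron and other divalent metals across membranes. It had no value on the 4 *ash2-I1* arrays. In *ash2-112411* the log2 ratio was −0.16 in Cy5 in extraction 1, and −0.08 in Cy5 and −0.17 in Cy3 in extraction 2. In *ash1-22* it was −0.28 in Cy5 and −0.12 in Cy3 in extraction 1, and −0.38 in Cy5 in extraction 2. All 6 values were below 0, and the alleles overlapped. The means were −0.14 ± 0.08 with an adjusted p of 0.18 by limma and −0.29 ± 0.08 with an adjusted p of 0.065.

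The iron regulatory protein genes were not called in any allele. *Irp-1A* encodes the protein that binds iron-responsive hairpins in flies, and its ratios were small with little spread. Its log2 ratio ran from −0.04 to 0.22 over the 4 *ash2-112411* arrays, from 0.16 to 0.25 over those of *ash1-22* and from 0.12 to 0.32 over those of *ash2-I1*. Of the 12 arrays, 10 were above 0 and the *ash2-112411* arrays with the mutant in Cy3, at −0.04 and −0.02, were not. The means were 0.09 ± 0.06, 0.19 ± 0.06 and 0.22 ± 0.06, with an adjusted p of 0.26 in *ash2-112411* and 0.11 in *ash1-22*, and the difference between these alleles was −0.09 ± 0.09 with an adjusted p of 0.49 by limma.

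*Irp-1B* encodes the second fly protein of the family, an aconitase for which binding to the hairpins has not been found. In *ash2-112411* it had −0.02 with the mutant in Cy5 and −0.77 in Cy3 in extraction 1, and −0.30 and −0.48 in extraction 2. In *ash1-22* the 4 arrays ran from −0.14 to −0.06, and in *ash2-I1* the 3 arrays with a value were −0.65, −0.11 and −0.27. All 11 values were below 0, and the lowest came from the *ash2* alleles. The mean was −0.40 ± 0.07 in *ash2-112411* with an adjusted p of 0.0026, short of 1.5-fold, −0.10 ± 0.07 in *ash1-22* with an adjusted p of 0.38, and −0.32 ± 0.07 in *ash2-I1*.

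The difference in *Irp-1B* between *ash2-112411* and *ash1-22* was −0.30 ± 0.10 with an adjusted p of 0.056. By adjusted p alone, 3 members passed in *ash2-112411*, *Tsf1* up and *Tsf2* and *Irp-1B* down, where 50.3% of all genes did. In *ash1-22* *Tsf1* alone passed, where 11.4% did. In the contrast of these alleles 2 of 7 members passed, *Tsf1* and *Tsf2*, beside 27.1% of all genes.

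**Figure D3:**
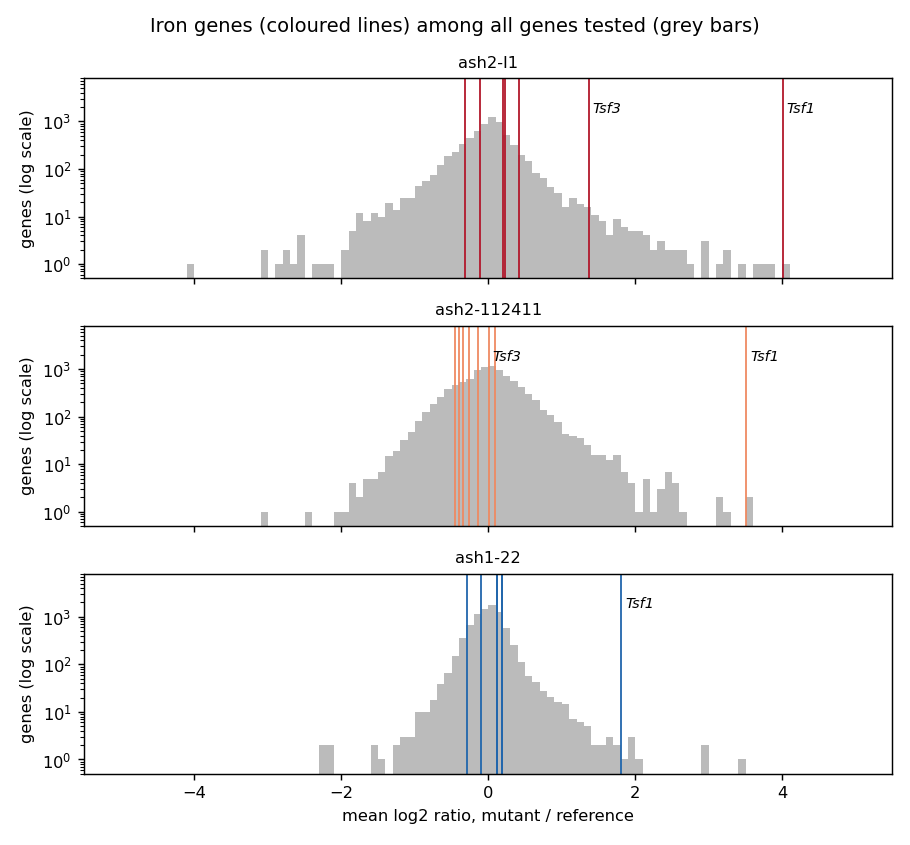
Number of genes (vertical, log scale) by mean log2 ratio of mutant over reference (horizontal, bins of 0.1) for all genes tested in each allele, with coloured lines at the iron genes tested there. *Tsf1* stands at the right end in the *ash2* alleles and at place 8 in *ash1-22*, *Tsf3* stands out of the bulk in *ash2-I1* alone of the 2 alleles where it was tested, and the other lines run through the bulk.

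Of the genes next to the members on the chromosome, *Nt5b* alone was past the thresholds, and only in the *ash2* alleles. *Nt5b*, beside *Tsf1* on the X chromosome and named for a 5′-nucleotidase, had log2 ratios of 0.45 to 0.85 in *ash2-112411*, of 1.63 to 3.11 in *ash2-I1* and of 0.09 to 0.19 on the 3 arrays of *ash1-22* with a value. Its mean was 0.69 in *ash2-112411*, where it was called up, and 0.14 in *ash1-22*, where it was not, and in *ash2-I1* it was 2.32. The gene on the other side, *betaCOP*, had means of −0.18, 0.00 and 0.02. Of all neighbours of the members, *Nt5b* was the 1 of 10 tested that was called in *ash2-112411* and the 1 of 11 past the thresholds in *ash2-I1*, while 0 of 8 were called in *ash1-22*. Over all genes tested, 17.3%, 12.5% and 3.06% were past the thresholds in these alleles, and 8.49%, 5.54% and 1.81% were past them upward. Neighbour counts of 0 or 1 are too small to be read against either share. The ferritin genes adjoin each other and, as members, are left out of these counts.

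The genes with values nearest to those of *Tsf1* were sought among 5433 genes with a value in all 6 extractions, by the root mean square difference of their log2 ratios. The nearest was *CG15784* at 0.90, followed by the glutathione S-transferase gene *GstD9* at 1.05, *CG8369* at 1.06, *Jhbp7*, named for juvenile hormone binding, at 1.18 and the glutathione S-transferase gene *GstE6* at 1.26. *CG15784* had a mean of 3.20 ± 0.42 in *ash2-112411*, 0.68 ± 0.42 in *ash1-22* and 3.47 ± 0.42 in *ash2-I1*. In all 5 genes both *ash2* means lay above the *ash1-22* mean, which the choice by nearness to *Tsf1* over the same extractions favours, and in *CG8369* the extractions overlapped. The root mean square difference of the nearest gene, 0.90, was larger than its SE of 0.42 and that of *Tsf1*, 0.15.

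**Figure D4:**
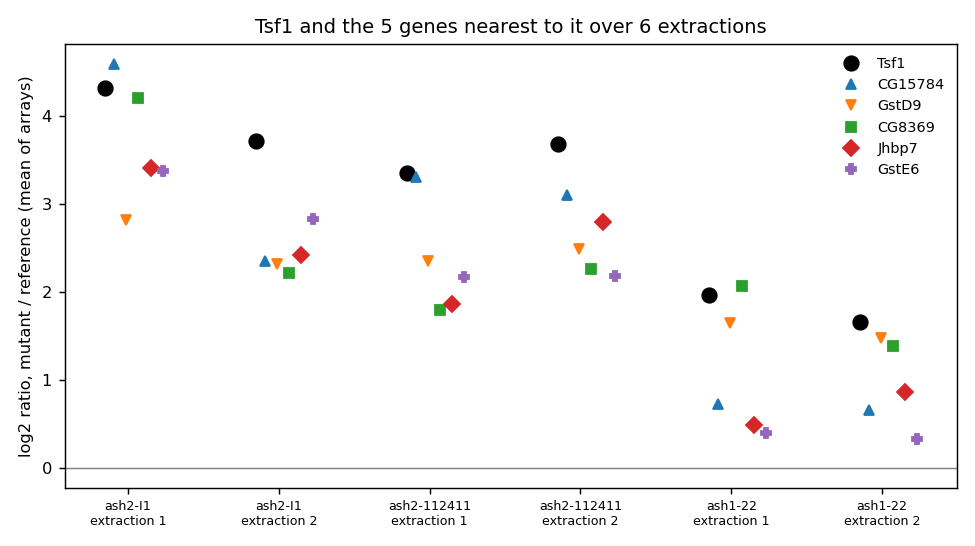
Log2 ratio of mutant over reference (vertical axis, mean of the arrays of 1 extraction) in each of the 6 extractions for *Tsf1* (black) and the 5 genes with the smallest root mean square difference from it. *Tsf1* is the highest of them in 4 extractions, and *CG15784* falls from 4.59 to 2.35 between the extractions of *ash2-I1*, where *Tsf1* goes from 4.32 to 3.71.

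For *Tsf3*, over the 5 extractions that measured it, the nearest genes were much closer. They were *CG15611* at 0.15, *wun*, a lipid phosphate phosphatase gene, at 0.18, the Rab GTPase gene *RabX2* at 0.18, *CG33158* at 0.19 and the aminotransferase gene *Agxt* at 0.20. All 5 had means of 1.12 to 1.36 in *ash2-I1* and of −0.10 to 0.29 in *ash2-112411*. Since the *ash2-I1* extractions are the high ones in *Tsf3*, likeness here is largely a high ratio in that allele.

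Other genes that use iron were counted from lists. Iron-sulfur clusters are built on scaffold proteins in the mitochondrion and then in the cytosol. Of 18 such genes listed, 15 had a value. In *ash2-112411*, 6 of 14 tested were called up and 0 down, beside the 8.49% of all genes called up, with a median of 0.51. In *ash1-22*, 0 of 15 were called, with a median of 0.11, and 1 was called on the common scale of arrays. In *ash2-I1*, 8 of 14 were past the thresholds, all up, with a median of 0.69. Over all genes tested, 5.54% were past them upward there and 1.81% in *ash1-22*.

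*IscU*, the mitochondrial scaffold, had log2 ratios of 1.97 in Cy5 and 0.83 in Cy3 in extraction 1 of *ash2-112411*, and 2.15 and 1.03 in extraction 2, and 0.44 to 0.59 on the 4 *ash1-22* arrays. Its means were 1.49 ± 0.12 in *ash2-112411* with an adjusted p of 0.00018 by limma and 1.95 ± 0.12 in *ash2-I1*. *Nubp1*, a cytosolic scaffold gene, ran from 0.62 to 1.13 over the arrays of *ash2-112411* and from 0.05 to 0.13 over those of *ash1-22*, so the alleles did not overlap, with a mean of 0.83 ± 0.08 in *ash2-112411* and 1.27 ± 0.08 in *ash2-I1*. The other genes highest in *ash2-112411* were *CG13623* at 1.34 ± 0.10 and *Nubp2* at 0.97 ± 0.07, and in *ash2-I1* they were *Nubp2* at 1.11 and the cysteine desulfurase gene *Nfs1* at 1.20. *Nfs1* was at 0.12 in *ash2-112411*. Of the 8 genes past the thresholds in *ash2-I1* and the 6 in *ash2-112411*, 4 were shared by the *ash2* alleles: *CG13623*, *IscU*, *Nubp1* and *Nubp2*. Both alleles were set against the same reference pool.

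In the contrast *ash2-112411* minus *ash1-22*, 7 of 14 iron-sulfur genes were higher and 0 lower at an adjusted p under 0.05, beside 12.5% of all genes higher. *CG13623* differed by 1.33 ± 0.14, *IscU* by 0.98 ± 0.17 and *Nubp1* by 0.74 ± 0.11. On the common scale 2 of 14 were higher, so this count turns on the scale, as the difference in *Tsf1* does.

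The remaining metal genes were mostly not called. Over all genes tested, 17.3% were past the thresholds in *ash2-112411*, 3.06% in *ash1-22* and 12.5% in *ash2-I1*, in either direction. Among 11 further genes of iron transport, storage and reduction, 1 of 10 tested was called in *ash2-112411*, the sideroflexin gene *Sfxn2* at −0.60, which was not called on the common scale or with arrays centred on their median. In *ash1-22* 1 of 10 was called, the cuticle laccase gene *stw* at −0.58, which was lost when either extraction was left out. *Sfxn1-3* at −0.68 and *Sfxn2* at −0.62 were past the thresholds in *ash2-I1*, 2 of 7. No gene of heme synthesis and breakdown was called, of 6 tested in *ash2-112411*, 6 in *ash1-22* and 5 in *ash2-I1*. Of the genes that handle copper and zinc, the metallothionein gene *MtnA* rose by 2.43 in *ash2-112411*, 1 of 16, and the zinc transporter gene *ZnT41F* was called at −0.69 in *ash1-22*, 1 of 12, which was lost without either of its extractions. *MtnA* was at 0.61 in *ash2-I1*, 1 of 7, and was not past the thresholds there on the common scale.

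**Figure D5:**
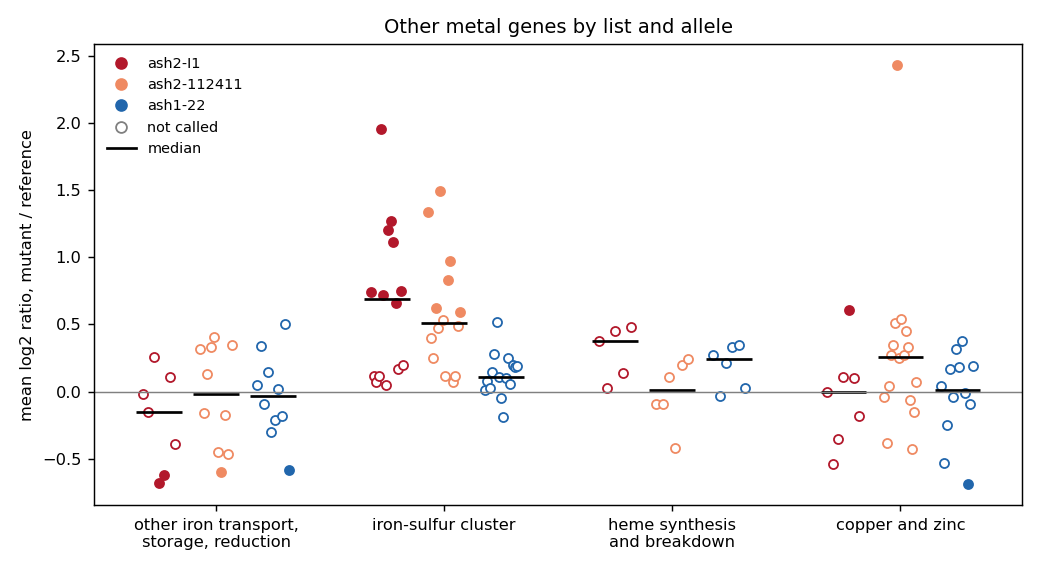
Mean log2 ratio of mutant over reference (vertical axis) of each tested gene of 4 lists, by allele; filled points are genes past both thresholds, open points are not, and black bars are medians. The iron-sulfur genes have medians of 0.69 and 0.51 in the *ash2* alleles and 0.11 in *ash1-22*.

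Since *Tsf1* is made by other larval tissues, markers of those tissues were read in the same discs. Of 8 fat body genes, 4 had a value on any array, and none of those tested was called, 3 in *ash2-112411* and 2 each in *ash1-22* and *ash2-I1*. The storage protein gene *Lsp2* had log2 ratios of −2.13 to −1.62 in *ash2-I1*, −0.78 to 1.24 in *ash2-112411*, and 4.38 and 3.99 in extraction 1 but −0.35 in extraction 2 of *ash1-22*. The fat body genes *Fbp1* and *Fbp2* were likewise high in extraction 1 of *ash1-22*, at 2.26 and at 3.83 and 4.27, and *Fbp1* was at −0.13 in extraction 2. In *ash2-I1*, *Fbp1* ran from −0.40 to 0.01 over the arrays. *Fbp2* was at 0.59 and the fat body gene *Apoltp* at −0.13 there, each on a single array. *Tsf1* was at 1.96 in extraction 1 of *ash1-22* and at 1.66 in extraction 2. In that extraction 2 *Lsp2* and *Fbp1* each rested on a single array, and *Fbp2* had no value. These values rest on few markers and arrays, and the part of fat body in the *Tsf1* values was not tested.

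Of 13 hemocyte genes, which mark the blood cells, 3 of 10 tested were called up in *ash2-112411* and 1 of 9 in *ash1-22*, and 0 of 7 passed in *ash2-I1*. Over all genes, 8.49%, 1.81% and 5.54% passed upward in these alleles. The prophenoloxidase gene *PPO2*, which marks crystal cells, rose by 2.42 in *ash2-112411* and by 1.21 in *ash1-22*, and had values from −0.09 to 1.27 in *ash2-I1*. The others called in *ash2-112411* were *PPO1* at 0.67 and *eater* at 0.60. Among the rest of the list there, *lz* was at −0.02, *srp* at −0.05 and *vkg*, the lowest, at −0.32. The medians of the hemocyte list were 0.20 in *ash2-112411*, 0.19 in *ash1-22* and −0.01 in *ash2-I1*, and the part of these cells in the *Tsf1* values was not tested. Of 14 antimicrobial peptide genes, whose family is induced by infection as *Tsf1* can be, 6 had a value and 1 of 5 tested was called in *ash2-112411*, *Def* at 0.65, with 0 of 2 in *ash1-22* and 0 of 1 in *ash2-I1*.

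Gut genes were called in 0 of 3 tested in *ash2-112411* and 0 of 2 in *ash1-22*, and *ash2-I1* tested none. For these and the next lists, the shares of all genes past the thresholds were 17.3% in *ash2-112411*, 3.06% in *ash1-22* and 12.5% in *ash2-I1*. Of 8 muscle genes, 5 had a value. *Mp20* was called up at 0.97 in *ash2-112411*, 1 of 5 tested, and at 1.67 in *ash1-22*, 1 of 5. In *ash2-I1* it was past the thresholds at 2.04, 1 of 3. Of 11 wing disc genes, 7 had a value. 2 of 6 were called down in *ash2-112411*, *ap* at −1.21 and *vg* at −0.81, 2 of 7 in *ash1-22*, *pdm2* at −0.83 and *ap* at −0.67, and 4 of 6 were past the thresholds in *ash2-I1*, with *vg* the lowest at −1.10. Ratios give no levels, so the tissue itself could be checked only as far as these genes gave signal.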

How the data were processed

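Two-color oligonucleotide arrays of wing disc RNA were analysed. The authors discarded spots of low quality, applied normexp background correction and OLIN normalization, and scaled the 4 arrays of an allele to each other. What they deposited is the log2 of Cy5 over Cy3, and the sign was turned where the mutant was labelled with Cy3, by a factor of −1. As deposited, the 2 arrays of an extraction had correlations of −0.775 to −0.371, negative because the dyes were exchanged. The submitters' notes name limma. Of 16416 spots, 14258 had a value, and 13164 probes carried 1 symbol. Probes with several symbols (101) were left out.

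The arrays of an extraction were averaged. A linear model over the 6 extractions was fitted with limma (version 3.58.1, R version 4.3.3; 11610 probes, prior SD 0.118 on 4.34 degrees of freedom), with Benjamini-Hochberg adjustment within each allele and within the contrast. A probe was tested where both extractions had a value, and a gene has the value of its probe on the most arrays. On simulated data 96% to 100% of probes changed by a log2 ratio of 1 were called, of 7174 to 10407 probes. The noise was drawn from the fitted model, with no dye bias, error of the pool or scale difference between alleles. The simulation therefore checks the fit and does not measure the power in these data. The members and all lists were chosen with earlier results of these data known. Named were all members, up to 4 called genes per list and allele with the largest ratio, and the 5 genes nearest to *Tsf1* and to *Tsf3*. Genes named beside these, such as chromosome neighbours and fat body genes, were chosen after their values were seen. Alternatives were arrays as replicates, each allele alone, a common scale, median centring, complete probes, 1 dye, 1 extraction left out and a replicate block. Where 1 extraction was left in an allele, the fit took it to vary like the others. The number of arrays limits the precision.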

Additional observations from a re-analysis of the deposited data

Results flagged for a closer look

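The effect on *Tsf1* differed between *ash2-112411* and *ash1-22* by 1.70 in the limma contrast (adjusted p 0.0045), and by 0.05 with an adjusted p of 0.88 when all arrays had the same spread. It differed by 2.7 on the arrays with the mutant in Cy5 and by 0.7 on those with it in Cy3. The effect on *Tsf2* differed between the same alleles by −0.57 (adjusted p 0.012 by the limma contrast). On the arrays with the mutant in Cy3 alone it differed by −0.29, with an adjusted p of 0.19 by that contrast.

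For *Tsf2* in that pair of alleles, and in 3 further comparisons, the extractions of the alleles lay on opposite sides of 0. *Tsf2* was below 0 in both extractions of *ash2-I1* and above it in both of *ash1-22*, a difference of −0.22 that was not tested. *Fer2LCH* was above 0 in *ash2-I1* and below it in *ash2-112411*, a difference of 0.68 that was not tested. *Fer2LCH* was also below 0 in *ash2-112411* and above it in *ash1-22*, a difference of −0.45 with an adjusted p of 0.14 by limma, and at 0.00 on the arrays with the mutant in Cy5.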

How the results depend on the processing

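Of the values of single genes under the alternatives, 16 newly passed the thresholds for a call (for contrasts, adjusted p alone), 5 no longer passed them, 35 that were not called moved by more than the SD, 325 did none of these, and 0 called values changed sign. The count of iron genes past the thresholds in *ash2-I1* was 2, 1 with complete probes or with the mutant in Cy3 alone, and 3 with it in Cy5 alone, where *Fer2LCH* (0.96) joined; with single extractions left out it was 2 to 4, with 4 without *ash2-I1* replicate 2, where *Fer1HCH* (0.67) and *Fer2LCH* (0.64) joined. In *ash2-112411* it was 1, and 3 with either dye alone, where *Tsf2* (−0.72) and *Fer1HCH* (−0.63) joined in Cy5, and *Fer2LCH* (−0.81) and *Irp-1B* (−0.63) in Cy3. In *ash1-22* it was 1 under every alternative. The count of iron genes that differed between *ash2-112411* and *ash1-22* was 2, and 1 on the common scale, 3 with arrays as replicates or with the mutant in Cy3 alone, 4 with complete probes and 1 to 4 with single extractions left out: 4 without *ash2-I1* replicate 1 or 2, and 1 without *ash2-112411* replicate 2 or *ash1-22* replicate 1 or 2. Each allele alone gives no contrast. With arrays as replicates, the correlation within extractions was −0.473.

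Extraction numbers are shared by the alleles as numbers only, since same-numbered extractions deviated together with correlations of 0.091, −0.046 and −0.134. A fit with the replicate block gave the same counts of 2, 1 and 1 iron genes called in *ash2-I1*, *ash2-112411* and *ash1-22* and 2 in the contrast. The deposited ratios hold no brightness, so no detection limit can be given.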
